A study of Mus musculus with 96 samples.

Results

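The DNA methylation and Tet genes examined here are 10 genes: the DNA methyltransferases Dnmt1, Dnmt3a and Dnmt3b, the methylcytosine dioxygenases Tet1, Tet2 and Tet3, the methyl-CpG binding domain genes Mbd1, Mbd2 and Mbd3, and Uhrf1. The members are all ChIP-seq peaks that the deposited annotation assigns to one of these gene symbols, and there were 16 such peaks among the 22815 peaks of 6 tables. The tables hold H3K4me3, H3K27me3 and Suz12 signal in NeuN+ and NeuN- nuclei sorted from the hippocampus of 6 month old male mice, on a C57BL/6N background, with 3 libraries for each of 4 genotypes. WT mice carried both DNA glycosylases, Mutyh-/- and Ogg1-/- mice lacked one of them, and DKO mice, bred by crossing the single mutants, lacked both; no other allele or treatment was given. Each library came from pooled animals of one genotype and from fixed nuclei. NeuN, the product of Rbfox3, marks most neurons, and NeuN- nuclei are a mixture in which glia prevail.

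Dnmt3a and Dnmt3b set methyl groups on unmethylated CpG sites, while Dnmt1 copies the pattern to the new strand after replication, where Uhrf1 recognises hemimethylated CpG and recruits it. The Tet enzymes oxidise 5-methylcytosine to hydroxymethylcytosine, a base that is abundant in neurons, and the oxidised bases can be removed by base excision repair. Mbd1 and Mbd2 bind methylated CpG, and Mbd3 is a subunit of the NuRD remodelling complex that binds methylated DNA weakly or not at all. H3K4me3 marks the start sites of active or poised genes, H3K27me3 is written by Polycomb repressive complex 2 at silent or poised genes, and Suz12 is a subunit of that complex. Ogg1 removes 8-oxoguanine opposite cytosine and Mutyh removes adenine opposite 8-oxoguanine. The comparisons address whether loss of the glycosylases goes with other histone marks at the genes that write, read and oxidise DNA methylation.

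H3K4me3 in NeuN+ nuclei was found at all 10 genes, with 12 peaks, 1 for each gene and a further one for Tet1 and Tet3. In NeuN- nuclei only Tet1 and Dnmt3a, 2 of 10 genes, had an H3K4me3 peak. Of the 11512 genes with an H3K4me3 peak in NeuN+ nuclei, 26.1% also had one in NeuN- nuclei. H3K27me3 peaks were called at Tet1 and Uhrf1 in NeuN+ nuclei, that is at 2 of 10 members, while 7.82% of the genes with neuronal H3K4me3 had one. No member peak was found in the H3K27me3 NeuN- table or in either Suz12 table, in which 5.88%, 2.57% and 0.843% of the genes with neuronal H3K4me3 had a peak. A gene outside a table had no consensus peak there, and its signal in that fraction cannot be read from the tables.

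At both genes with the 2 marks, the H3K27me3 peak stood beside the H3K4me3 peak and did not overlap it. All peaks compared here are windows of 401 bases, so the full extent of each mark cannot be read from them. The gaps below are gaps between such windows. At Tet1, on the minus strand of chromosome 10, the H3K4me3 peaks of NeuN+ (chr10:62886604-62887004) and NeuN- nuclei (chr10:62886942-62887342) shared 63 bases near the RefSeq start site, 21992 and 21654 bases inside the longer gene that GENCODE M21 annotates. The H3K27me3 peak of NeuN+ nuclei (chr10:62885418-62885818) lay within an intron, 785 bases further into the gene than the neuronal H3K4me3 peak. At Uhrf1, on the plus strand of chromosome 17, the H3K27me3 peak (chr17:56302817-56303217) lay upstream of the gene as GENCODE M21 annotates it, and the H3K4me3 peak (chr17:56303934-56304334) covered a second start site, with 716 bases between both peaks. Among the 900 genes with both marks in NeuN+ nuclei, 20.7% had overlapping peaks and 16.9% had separate peaks at most 1000 bases apart. All coordinates are on GRCm38 (mm10).

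**Figure D1:**
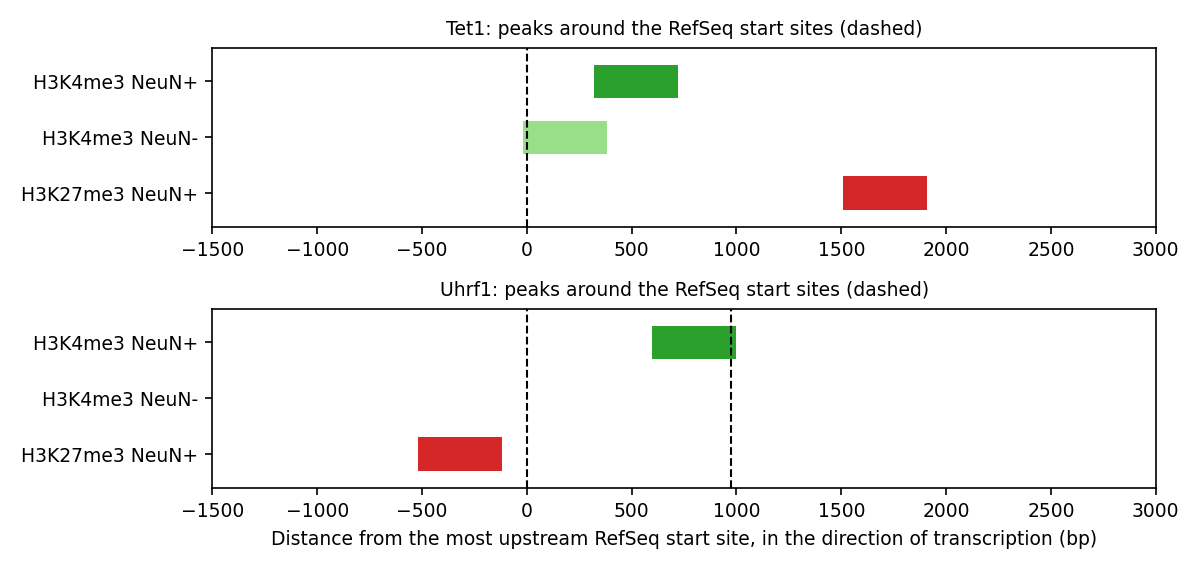
Position of the Tet1 and Uhrf1 peaks (bars) along the gene, as distance in bp from the most upstream RefSeq start site in the direction of transcription, with RefSeq start sites as dashed lines and 1 row for each table. The H3K27me3 peak lies inside Tet1 and upstream of Uhrf1, in both cases apart from the H3K4me3 peak, and Uhrf1 has no NeuN- H3K4me3 peak. Each bar is a window of 401 bp, from which the full extent of a mark cannot be read.

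Sequences at or beside these peaks are shown because the genes code for proteins that act on CpG sites and because the peaks differed in CpG content. The printed promoters are start-site windows that lie only partly within a peak, and their CpG counts are those of the windows. Each is written 5′ to 3′ on the strand of the gene, with every CpG dinucleotide in capitals. The promoters are RefSeq windows on GRCm38.p6 that run from 250 bases before to 50 bases after a start site, and the peak centres are the middle 300 bases of a peak on the same build. The first is the Tet1 promoter (chr10:62887275-62887574, minus strand, 17 CpG). The NeuN- H3K4me3 peak overlaps this window in part, and the NeuN+ H3K4me3 peaks do not. It is followed by the centre of the Tet1 H3K27me3 peak (chr10:62885469-62885768, minus strand, 7 CpG) and the centre of the downstream Tet1 H3K4me3 peak (chr10:62865301-62865600, minus strand, 7 CpG).
Tet1 promoter: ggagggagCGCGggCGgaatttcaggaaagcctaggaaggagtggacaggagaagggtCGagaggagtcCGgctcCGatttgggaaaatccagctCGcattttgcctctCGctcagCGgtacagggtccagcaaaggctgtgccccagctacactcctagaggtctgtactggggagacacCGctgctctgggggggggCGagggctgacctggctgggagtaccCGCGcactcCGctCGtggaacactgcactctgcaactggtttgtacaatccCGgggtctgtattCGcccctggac
Tet1 H3K27me3 peak centre: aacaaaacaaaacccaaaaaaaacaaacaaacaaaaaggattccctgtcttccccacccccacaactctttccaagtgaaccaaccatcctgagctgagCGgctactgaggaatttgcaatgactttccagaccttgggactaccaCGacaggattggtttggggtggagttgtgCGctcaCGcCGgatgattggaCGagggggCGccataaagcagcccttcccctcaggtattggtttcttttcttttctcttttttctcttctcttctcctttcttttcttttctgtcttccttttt
Tet1 downstream H3K4me3 peak centre: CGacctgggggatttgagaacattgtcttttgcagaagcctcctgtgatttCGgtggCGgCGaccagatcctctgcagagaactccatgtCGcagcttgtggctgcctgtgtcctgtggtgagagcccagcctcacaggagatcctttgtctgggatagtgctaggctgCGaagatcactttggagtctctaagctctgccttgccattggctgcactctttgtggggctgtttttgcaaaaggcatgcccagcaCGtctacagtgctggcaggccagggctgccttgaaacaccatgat

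Next are both Uhrf1 promoters on the plus strand, of which the upstream one (chr17:56303087-56303386, 12 CpG) overlaps the H3K27me3 peak and the downstream one (chr17:56304063-56304362, 33 CpG) overlaps the H3K4me3 peak. The Dnmt3a promoter (chr12:3806910-3807209, plus strand, 47 CpG) is shown as the member promoter that H3K4me3 peaks of both fractions overlap. These peaks share 287 bases, most of which lie past the end of the printed window.
Uhrf1 upstream promoter: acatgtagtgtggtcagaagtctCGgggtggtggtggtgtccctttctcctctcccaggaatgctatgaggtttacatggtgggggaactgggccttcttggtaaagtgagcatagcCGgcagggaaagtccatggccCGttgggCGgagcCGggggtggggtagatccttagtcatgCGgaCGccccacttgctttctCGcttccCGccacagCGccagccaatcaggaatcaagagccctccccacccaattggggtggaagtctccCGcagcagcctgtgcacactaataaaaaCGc
Uhrf1 downstream promoter: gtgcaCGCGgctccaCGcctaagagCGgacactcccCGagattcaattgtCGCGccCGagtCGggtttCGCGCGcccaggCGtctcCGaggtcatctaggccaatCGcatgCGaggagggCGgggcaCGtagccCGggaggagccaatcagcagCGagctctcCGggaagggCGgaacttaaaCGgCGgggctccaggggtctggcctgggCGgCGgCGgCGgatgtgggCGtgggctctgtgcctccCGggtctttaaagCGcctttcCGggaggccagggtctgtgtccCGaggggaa
Dnmt3a promoter: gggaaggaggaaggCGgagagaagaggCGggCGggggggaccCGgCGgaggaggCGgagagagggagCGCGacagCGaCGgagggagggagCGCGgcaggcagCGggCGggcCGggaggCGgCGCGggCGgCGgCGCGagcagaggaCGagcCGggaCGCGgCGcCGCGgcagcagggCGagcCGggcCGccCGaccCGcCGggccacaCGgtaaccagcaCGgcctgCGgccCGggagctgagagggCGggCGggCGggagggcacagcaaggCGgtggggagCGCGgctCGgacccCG

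RefSeq windows were matched for 8 of 10 genes, 13 windows in all. The median of all 32851 windows was 7 CpG, and the Dnmt3a window stood at the 98.8th percentile, the downstream Uhrf1 window at the 92.3rd, the Tet1 window at the 70.3rd and the upstream Uhrf1 window at the 62.1st. The GC box GGGCGG, searched on both strands, was present in 11 of the 13 windows and in 35.7% of all windows, and the CCAAT box CCAAT was present in 6 of 13 and 37.4%. These matches describe the letters of the windows only.

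The 12 neuronal H3K4me3 peaks were all annotated within 1 kb of a start site, like 92.3% of the 12628 peaks of that table. By GENCODE M21 the peaks of Dnmt1, Dnmt3a, Dnmt3b, Mbd1, Tet2, Uhrf1 and the upstream peak of Tet3 covered part of a first exon in the 5′ untranslated region together with intron. The Mbd2 peak lay wholly in coding sequence of exon 1, and the Mbd3 peak held 110 coding bases. The upstream Tet1 peak, near the RefSeq start site, was intronic, the downstream Tet1 peak (chr10:62865250-62865650) covered a start site further inside the gene, 20953 bases away from it, and the downstream Tet3 peak (chr6:83440568-83440968) lay 864 bases downstream of a start site in a noncoding exon. Nearly all peaks of the tables are 401 bases wide, so levels can be set beside each other per length within a table.

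Peak by peak, the member sequences ranged from CpG-poor to among the CpG-richest of the table. The Dnmt3a peak held 67 CpG and stood at the 98.9th percentile of the NeuN+ H3K4me3 table, the Mbd2 peak held 61, the Dnmt3b peak 60 and the Mbd3 peak 58. The downstream Tet1 peak held 9 and the downstream Tet3 peak 10, at the 4.27th and 4.98th percentile. The median over the table was 35 CpG. Across the 12 member peaks, CpG count and mean WT level had a Spearman rho of 0.804 and a Pearson r of 0.810, given as a description, since the peaks share libraries.

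Levels are given as normalised reads per peak, the unit of the tables, which are compared here between libraries of one table and not between tables. Normalised totals still differed between libraries of one table, as given below. Libraries held 96023 to 548706 reads in peaks in the NeuN+ H3K4me3 table, 39320 to 120004 in the NeuN- H3K4me3 table and 23794 to 52344 in the NeuN+ H3K27me3 table. In sorted nuclei in bulk, a weaker mark in each nucleus and a smaller share of nuclei with the mark cannot be told apart. The labelled fractions were checked with marker genes: H3K4me3 peaks were present at 7 of 8 neuronal markers in NeuN+ and 0 of 8 in NeuN- nuclei, and at 1 of 6 oligodendrocyte lineage markers in either fraction (Mbp in NeuN+, Olig1 in NeuN-). Astrocyte markers had an H3K4me3 peak at 2 of 5 genes in NeuN+ and at 1 of 5 in NeuN- nuclei, and microglial (3 genes) and vascular markers (2 genes) had none in either. H3K27me3 peaks were present at 4 of 6 oligodendrocyte lineage and 2 of 8 neuronal markers (Gad1 and Gad2) in NeuN+ nuclei, and at 1 of 6 (Pdgfra) and 4 of 8 in NeuN- nuclei. Both vascular markers had an H3K27me3 peak in either fraction, and the astrocyte and microglial markers had none. Oaf, which the paper shows as a glial gene, had an H3K4me3 peak in both fractions and an H3K27me3 peak in NeuN+ nuclei only. The NeuN- table thus lacked H3K4me3 peaks at most glial markers too. The targeted genes offer no check of the labels, since Mutyh had no peak in any table and the single Ogg1 peak, at its promoter, was read in 3 of 3 Ogg1-/- libraries at 17.9, 6.15 and 13.8 normalised reads and in 2 of 3 DKO libraries at 0, 14.5 and 5.31, against 15.4, 5.85 and 10.8 in WT.

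In WT neurons, Mbd2 had the highest H3K4me3 level of the members at 38.1 ± 13.2 normalised reads (SD, n = 3), at the 96.3rd percentile of the table. Dnmt3a followed with 32.6 ± 13.4, Dnmt3b with 30.6 ± 9.75, Mbd3 with 26.2 ± 10.8, Mbd1 with 25.6 ± 4.88 and Dnmt1 with 24.4 ± 5.08. Lower levels were measured at Tet3 (21.7 ± 9.31), Tet2 (21.3 ± 9.01), Uhrf1 (18.2 ± 3.18) and Tet1, which had 7.78 ± 4.97 at its downstream and 9.36 ± 4.10 at its upstream peak. Of the 9 steps between neighbours in this order, taking each gene's peak with the highest mean over all 12 libraries (for Tet1 the downstream one), 8 were smaller than the larger SD of the pair. The exception was the step from Uhrf1 to Tet1, of 10.4 normalised reads, or 8.84 with the upstream Tet1 peak. Within single libraries and with the same peaks, the downstream Tet1 peak was the lowest of the 10 in 9 of 12 libraries and Mbd2 the highest in 6 of 12.

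**Figure D2:**
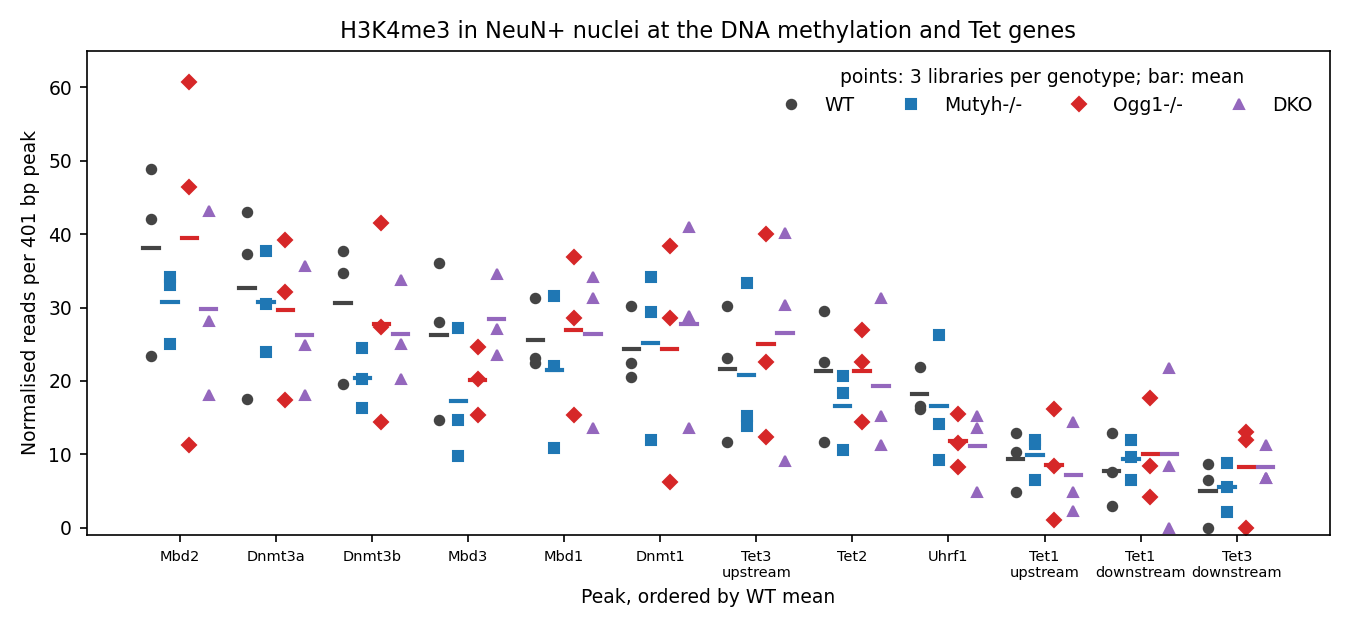
Normalised H3K4me3 reads at the 12 member peaks in NeuN+ nuclei, with 3 libraries (points) and their mean (bar) for each genotype and the peaks ordered by WT mean. Genotypes overlap at nearly every peak, and both Tet1 peaks and the downstream Tet3 peak lie lowest, at the 1.35th to 5.46th percentile of the table in WT.

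Among the DNA methyltransferases, the maintenance enzyme Dnmt1 was read at 20.6, 22.4 and 30.2 in WT, 11.99, 29.4 and 34.2 in Mutyh-/-, 28.6, 6.15 and 38.5 in Ogg1-/- and 13.5, 41.02 and 28.8 in DKO libraries, replicates 1 to 3 in that order here and below. The 4 genotypes overlapped, and the lowest library was Ogg1-/- replicate 2. Dnmt3a, the main de novo enzyme of postnatal neurons, had 37.3, 17.6 and 43.1 in WT, 30.5, 23.9 and 37.7 in Mutyh-/-, 32.1, 17.4 and 39.2 in Ogg1-/- and 18.04, 24.9 and 35.6 in DKO libraries. Its log2 fold changes on log2(value + 1) were -0.02 in Mutyh-/-, -0.12 in Ogg1-/- and -0.26 in DKO, each with a standard error of 0.42. Dnmt3b, a de novo enzyme best known from the early embryo, had 34.7, 19.5 and 37.7 in WT, 16.3, 20.2 and 24.5 in Mutyh-/-, 27.4, 14.4 and 41.5 in Ogg1-/- and 20.3, 33.8 and 25.02 in DKO libraries. Mutyh-/- libraries were on the low side at Dnmt3b, at -0.53 ± 0.43 on the log2 scale (SE), and still overlapped WT.

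The Tet genes showed no separation by genotype in neurons. Tet2 was read at 29.6, 11.7 and 22.6 in WT, 20.7, 18.4 and 10.5 in Mutyh-/-, 22.6, 14.4 and 26.9 in Ogg1-/- and 11.3, 31.4 and 15.2 in DKO libraries, and the upstream peak of Tet3 at 23.2, 11.7 and 30.2 in WT, 15.3, 13.8 and 33.3 in Mutyh-/-, 22.6, 12.3 and 39.99 in Ogg1-/- and 9.02, 40.2 and 30.3 in DKO libraries. Ogg1-/- replicate 3 and DKO replicate 2 were high and DKO replicate 1 was low at Tet3. The downstream Tet1 peak had 12.9, 2.93 and 7.54 in WT, 6.54, 11.9 and 9.64 in Mutyh-/-, 8.33, 4.10 and 17.7 in Ogg1-/- and 0, 21.7 and 8.34 in DKO libraries, and ranged within DKO from the lowest to the highest of all 12 libraries. At the upstream peak of Tet1 the 12 values lay between 1.03 and 16.1 and at the downstream Tet3 peak between 0 and 13.1, and these weak peaks carried at most 21 and 17 reads in a library. Tet3 shares chromosome 6 with the deleted Ogg1 gene at a distance of 29.9 Mb.

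At the readers, Mbd1 was read at 23.2, 22.4 and 31.2 in WT, 10.9, 22.1 and 31.5 in Mutyh-/-, 28.6, 15.4 and 36.9 in Ogg1-/- and 13.5, 31.4 and 34.1 in DKO libraries. Mbd2 had 48.9, 23.4 and 42.00 in WT, 25.1, 33.1 and 34.2 in Mutyh-/-, 46.4, 11.3 and 60.8 in Ogg1-/- and 18.04, 28.1 and 43.2 in DKO libraries, with the widest spread in Ogg1-/-, where replicate 2 was the lowest and replicate 3 the highest of all libraries. Mbd3 had 36.02, 14.6 and 28.00 in WT, 9.81, 14.7 and 27.2 in Mutyh-/-, 20.2, 15.4 and 24.6 in Ogg1-/- and 27.1, 34.6 and 23.5 in DKO libraries. For Mbd3, Mutyh-/- was at -0.60 ± 0.46 (SE) against WT on the log2 scale and Ogg1-/- at -0.30 ± 0.46, whereas DKO was at 0.18 ± 0.46, and the contrast that asks whether DKO departs from the sum of both single effects was 1.09 ± 0.66 (SE), which did not pass the test (limma, unadjusted p = 0.106 and adjusted p = 1.00). Uhrf1, the partner of Dnmt1, had 21.9, 16.6 and 16.2 in WT, 14.2, 9.19 and 26.3 in Mutyh-/-, 15.5, 8.21 and 11.5 in Ogg1-/- and 13.5, 4.83 and 15.2 in DKO libraries. All 3 Ogg1-/- and all 3 DKO libraries were below all 3 WT libraries at Uhrf1, with log2 fold changes of -0.62 (95% interval -1.81 to 0.57) and -0.78 (-1.97 to 0.42), neither of which passed the test. Both adjusted p from limma were 1.00.

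A peak was called a differentially enriched region (DER) where limma gave an unadjusted p under 0.05 and the log2 fold change exceeded 0.5 in size. None of the 12 neuronal H3K4me3 peaks was a DER in Mutyh-/-, where 0.911% of all peaks were called, in Ogg1-/- (0.966%) or in DKO (1.46%), and none had an unadjusted p under 0.05 in limma, edgeR or DESeq2. Groups did not overlap at 0 of 12 member peaks in Mutyh-/- (5.77% of all peaks), at 1 of 12 in Ogg1-/- (3.68%) and at 1 of 12 in DKO (5.02%), in both cases Uhrf1. The median log2 fold change of the members was -0.15 in Mutyh-/-, -0.15 in Ogg1-/- and -0.18 in DKO, beside -0.07, 0.08 and -0.02 for all peaks. The half-width of the 95% intervals ran from 0.86 to 2.10 on the log2 scale. In this limma fit, a change of less than about that size was not detectable at the respective peak. The fit did not rescale the deposited values by library total. With TMM-scaled reads, edgeR made 1497 calls over the 3 contrasts of all peaks where this fit made 422, and again 0 at members.

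The members rose and fell together with the library. The sum of the 12 peaks was 120.0 to 170.0 normalised reads in 4 libraries, WT replicate 2, Mutyh-/- replicate 1, Ogg1-/- replicate 2 and DKO replicate 1, and 214.1 to 366.8 in the other 8. The same 4 libraries had the lowest totals over all peaks, 210553 to 237190 against 271314 to 421957. Over the 12 libraries the member sum followed the total with a Pearson r of 0.974 and a Spearman rho of 0.923, a description in which both measures share the normalisation. By genotype the sum was 260.9 ± 80.7 (SD, n = 3) in WT, 224.4 ± 60.2 in Mutyh-/-, 253.1 ± 124.5 in Ogg1-/- and 247.3 ± 82.5 in DKO. Without these 4 libraries, an alternative chosen after the data were seen, again 0 neuronal member peaks were called.

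**Figure D3:**
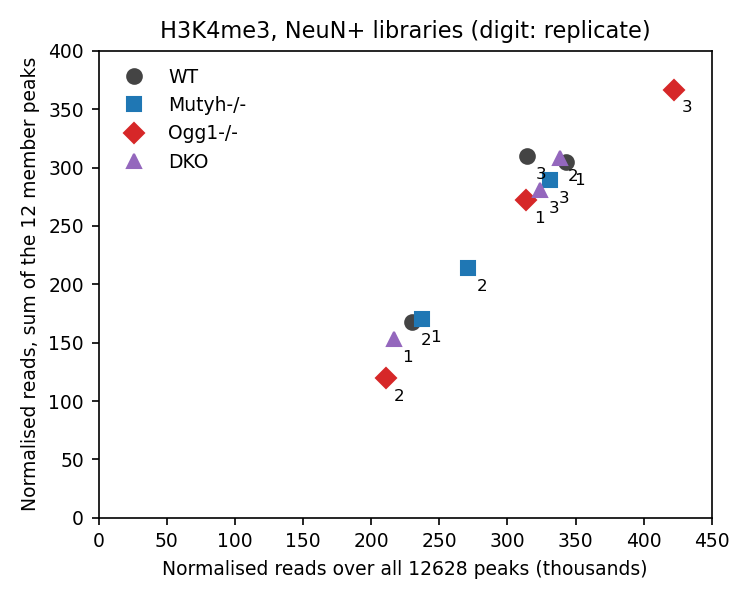
Sum of normalised H3K4me3 reads over the 12 member peaks against the sum over all 12628 peaks in the 12 NeuN+ libraries, with replicate numbers beside the points. One library of each genotype sits in the lower left, at totals up to 237190.

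Mbd2 was the member with the highest mean over all 12 neuronal H3K4me3 libraries. The 3 peaks of other genes most like it over these libraries on log2(value + 1) were at the promoters of Wnt5b (Pearson r = 0.969), Sart1 (0.958) and Odc1 (0.954), out of 12616 compared. The median over all peaks was 0.545, and Mbd2 itself followed the library total with r = 0.885.

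In NeuN- nuclei the Tet1 H3K4me3 peak at the RefSeq start site was low in WT and higher in each knockout library. It was read at 2.77, 3.94 and 2.36 in WT, 10.5, 12.96 and 6.50 in Mutyh-/-, 11.9, 7.18 and 7.10 in Ogg1-/- and 11.1, 5.72 and 5.59 in DKO libraries. All 9 knockout libraries lay above all 3 WT libraries, an order that was noticed after the values were seen and that 0.398% of the 3270 peaks of the table shared. Peaks entered the table by being found in several replicates, and the libraries in which this peak was called are not given. A peak called mainly in knockout libraries would tend to be low in WT. The part of this selection in the order was not tested, so the order is a description only. Taken one genotype at a time, the groups did not overlap at Tet1 in Mutyh-/- (9.24% of all peaks did not), Ogg1-/- (8.29%) and DKO (5.02%). The means were 3.02 ± 0.819 (SD, n = 3) in WT, 9.98 ± 3.26 in Mutyh-/-, 8.72 ± 2.73 in Ogg1-/- and 7.48 ± 3.17 in DKO. The log2 fold changes were 1.42 (95% interval -0.38 to 3.23), 1.26 (-0.55 to 3.06) and 1.03 (-0.77 to 2.84), and did not pass the test (limma, adjusted p = 1, 0.999 and 0.999). The 3 comparisons share the WT libraries, in which the peak was covered by 2, 5 and 2 reads, against 4 to 15 reads in the knockout libraries. The median of all peaks in this table was itself shifted by 0.22 in Mutyh-/-, 0.25 in Ogg1-/- and 0.05 in DKO, and totals were 56565 to 81829 normalised reads in WT and 63924 to 101135 in the knockouts. A single peak on chromosome 2 took 25.4% to 59.3% of the reads in peaks of these libraries, and without it the totals were 30329 to 40637 in WT and 33799 to 56475 in the knockouts. The part of the totals in the Tet1 values was not tested.

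Dnmt3a, the other gene with an H3K4me3 peak in NeuN- nuclei, did not move with Tet1. It was read at 6.91, 5.52 and 11.8 in WT, 3.81, 7.78 and 4.88 in Mutyh-/-, 14.8, 2.39 and 7.10 in Ogg1-/- and 13.00, 3.57 and 1.12 in DKO libraries, and the 4 genotypes overlapped. Its log2 fold changes were -0.47 ± 0.98 (SE) in Mutyh-/-, -0.20 ± 0.98 in Ogg1-/- and -0.76 ± 0.98 in DKO. Neither of both peaks was a DER in Mutyh-/- (2.94% of all peaks), Ogg1-/- (3.36%) or DKO (2.29%). In neurons the overlapping upstream peak of Tet1 had log2 fold changes of 0.13 ± 0.83, -0.50 ± 0.83 and -0.55 ± 0.83, and the difference between fractions was not tested, as the tables were normalised separately. Relative to its own table, Tet1 stood at the 5.05th percentile in WT NeuN- and its upstream peak at the 5.46th in WT NeuN+ nuclei, and Dnmt3a at the 42.3rd and the 85.7th.

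**Figure D4:**
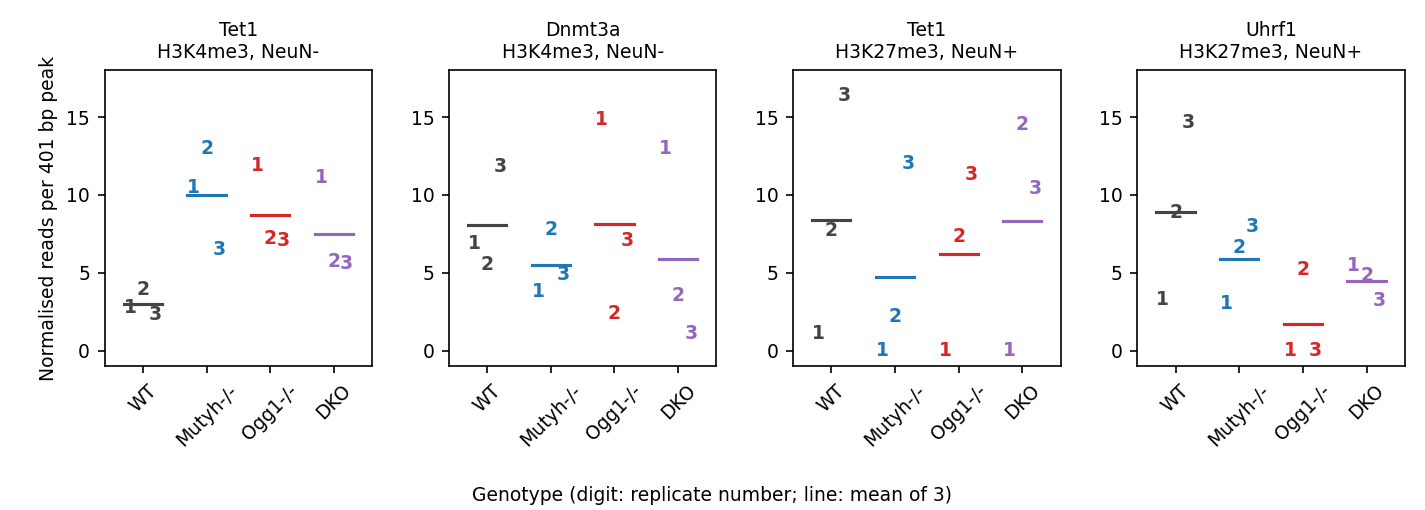
Normalised reads in each library, drawn as its replicate number, with the mean of 3 as a line, for the 2 NeuN- H3K4me3 and the 2 NeuN+ H3K27me3 member peaks. WT libraries are the 3 lowest at Tet1 H3K4me3, replicate 1 is the lowest of each genotype at Tet1 H3K27me3, and 2 of 3 Ogg1-/- libraries are at 0 at Uhrf1 H3K27me3.

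H3K27me3 at Uhrf1 in neurons was the single member DER. The peak was read at 3.29, 8.86 and 14.6 in WT, 3.04, 6.64 and 7.99 in Mutyh-/-, 0, 5.23 and 0 in Ogg1-/- and 5.46, 4.85 and 3.21 in DKO libraries. Ogg1-/- replicates 1 and 3 had no read, which allows up to 2.97 and 3.08 normalised reads by the limit of 3 reads, replicate 2 was within the range of WT, and the groups overlapped. The level was 8.93 ± 5.68 (SD, n = 3) in WT and 1.74 ± 3.02 in Ogg1-/-. Limma gave a difference of -2.24 on the log2 scale (95% interval -4.17 to -0.32, unadjusted p = 0.0222, adjusted p = 0.983 over the 4132 peaks), and 3.82% of all peaks were DERs in this contrast. The call rested on WT replicates 2 and 3 and on Ogg1-/- replicates 1 and 3, since without any one of these the log2 fold change was -2.15, -1.82, -1.80 and -1.80 and the peak was no longer called, and edgeR did not call it either. Mutyh-/- had 5.89 ± 2.56 and DKO 4.51 ± 1.16, with log2 fold changes of -0.42 ± 0.98 (SE) and -0.69 ± 0.98, and DKO, which also lacks Ogg1, had reads in 3 of 3 libraries. The contrast for a departure of DKO from additivity was 1.98 ± 1.39 (SE, limma adjusted p = 0.989). At the neighbouring H3K4me3 peak of Uhrf1, Ogg1-/- and DKO were also on the low side, as given above.

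H3K27me3 at Tet1 differed more between replicates of a genotype than between genotypes. It was read at 1.10, 7.75 and 16.4 in WT, 0, 2.21 and 11.99 in Mutyh-/-, 0, 7.32 and 11.3 in Ogg1-/- and 0, 14.5 and 10.4 in DKO libraries. Replicate 1 was the lowest library of every genotype, at 0 to 1.10 against 2.21 to 16.4 normalised reads in the other 8 libraries. In the same 4 libraries a single peak on chromosome 2 took 8.50% to 46.9% of the reads in peaks, against 0% to 6.49% in the other 8, and its part in the Tet1 values was not tested. The log2 fold changes were -0.98 ± 0.97 (SE) in Mutyh-/-, -0.55 ± 0.97 in Ogg1-/- and -0.28 ± 0.97 in DKO. Without replicate 1 of all 4 genotypes, chosen after the data were seen, Uhrf1 was at -2.32 on the log2 scale in Ogg1-/- and was again the only member DER. In Mutyh-/- 3.78% and in DKO 3.36% of all H3K27me3 peaks were DERs, and no member peak. Groups did not overlap at 0 of 2 member peaks in Mutyh-/-, Ogg1-/- and DKO, beside 9.15%, 9.17% and 9.08% of all peaks.

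Relative to the table, both H3K27me3 peaks were above the middle in WT neurons, Uhrf1 at the 81.7th and Tet1 at the 79.0th percentile. The Tet1 peak held 10 CpG and the Uhrf1 peak 5, beside a table median of 5. The Tet1 peak was 59.6% soft-masked repeat.

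**Figure D5:**
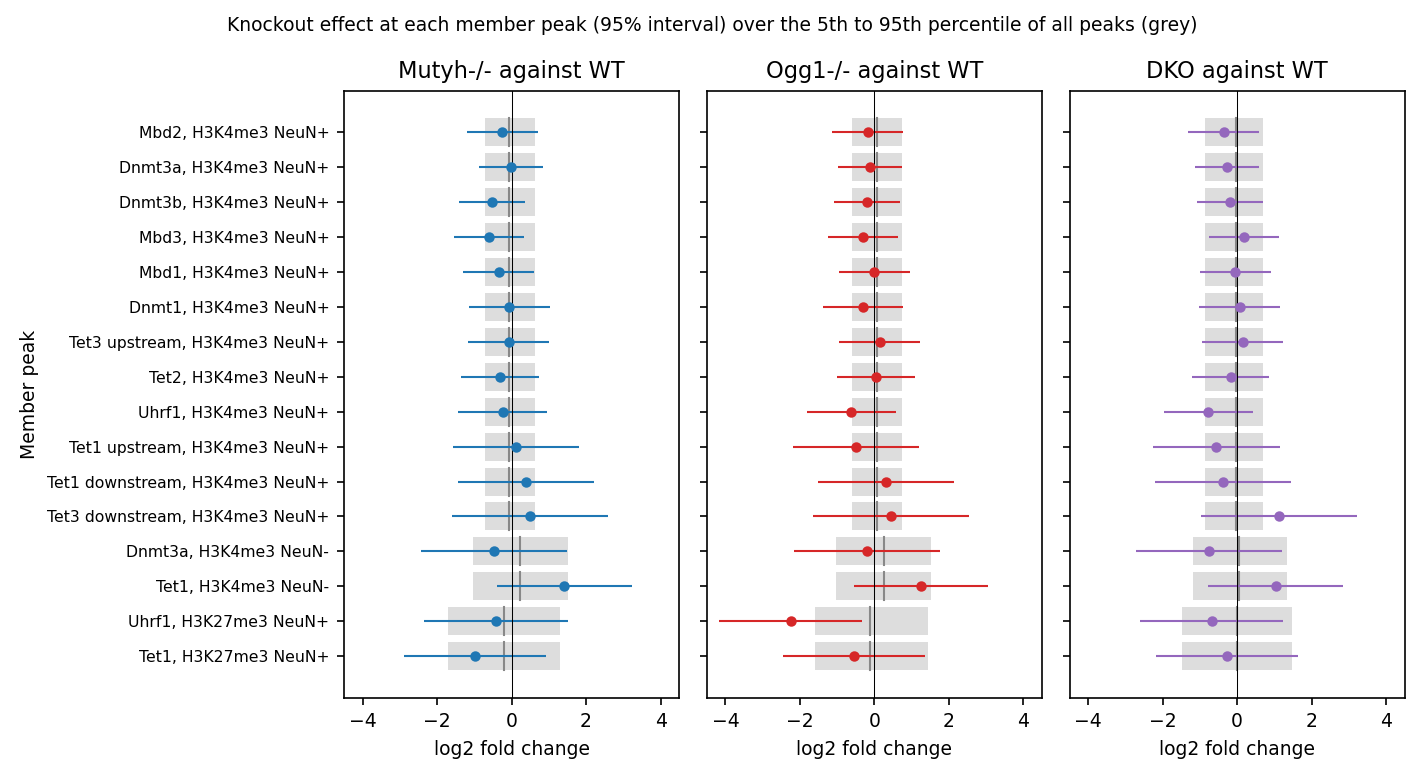
Log2 fold change with 95% interval (points and lines, limma) at each of the 16 member peaks in each knockout against WT, over the 5th to 95th percentile (grey bar) and median (grey tick) of all peaks of the same table. The interval leaves out 0 in 1 of 48 cases, Uhrf1 H3K27me3 in Ogg1-/-, at a log2 fold change of -2.24.

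Over all tables, 1 of 48 member tests was a DER, which is 2.08%, and of all tests in the 18 contrasts 2.13% were DERs. These shares come from unlike sets, since the 18 contrasts include tables without members. Of the 16 member peaks, 12 are in the NeuN+ H3K4me3 table, where 0.911% to 1.46% of all peaks were DERs. No member reached an adjusted p under 0.05, the lowest being 0.983 by limma, where 0.0233% of all tests in the 9 contrasts with members did. The moderated F test over the 4 genotypes gave no member peak with a p under 0.05, beside 0.451% of NeuN+ H3K4me3, 1.87% of NeuN- H3K4me3 and 2.93% of NeuN+ H3K27me3 peaks. A non-additive DKO effect, with p under 0.05 and a size over 0.5, was called at no member peak by limma and at 0.839%, 3.03% and 3.92% of all peaks of these tables. With edgeR, DESeq2 and limma on TMM-scaled reads, the Mbd3 peak alone of the members passed this rule, at contrasts of 1.05, 1.07 and 1.06. The share of all peaks that passed it under these settings was not computed. DER calls in the NeuN+ H3K4me3 table rose from 422 to 1497, 1110 and 1672 under them.

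Other genes of the pathway were read from a list of 50 genes in 5 groups, of which 40 had 61 peaks, 45 of them in the NeuN+ H3K4me3 table. DERs numbered 5 in 183 tests (2.73%, beside 2.13% of all tests), 4 higher and 1 lower, and none passed the adjusted threshold in limma, where the lowest adjusted p was 0.915. These pooled shares come from unlike sets, since most list peaks are H3K4me3 peaks of NeuN+ nuclei. Of those 45 list peaks, 1 was a DER in Mutyh-/-, 1 in Ogg1-/- and 2 in DKO. Of all peaks for that mark and fraction, 0.911%, 0.966% and 1.46% were DERs in the same order. The list thus had the larger share in each contrast, but with 1 or 2 calls, and the excess was not tested. A single Cxxc5 peak gave the Ogg1-/- call and a DKO call. The demethylation and Tet partner genes had 20 peaks at 11 of 14 genes with 3 DERs, all higher, the maintenance and de novo group 13 peaks at 9 of 10 genes with 1 DER, higher, and the methyl donor group 6 peaks at 4 of 5 genes with 1 DER, lower. The NuRD group had 13 peaks at 11 of 12 genes and the other readers 9 peaks at 5 of 9 genes, with 0 DERs in each, where limma was the test. Their median log2 fold changes were -0.04, 0.05, -0.03, -0.10 and 0.27 in the order named.

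Of the 5 calls, those 4 are named in which the knockout and WT libraries did not overlap, which was also so for 63.1% of all DERs. Among all 183 tests of the list 19 had no overlap, 15 of them at peaks that were not called, which is 10.4% beside 6.38% of all tests in the 18 contrasts. An intronic peak of Cxxc5, whose protein binds unmethylated CpG through a CXXC domain, had 3.95 ± 4.05 normalised H3K4me3 reads in WT neurons (SD, n = 3), 16.1 ± 3.55 in Ogg1-/- and 11.3 ± 2.35 in DKO. Its log2 fold changes were 2.07 ± 0.77 and 1.59 ± 0.77 (SE, limma adjusted p = 1.00 for each), from comparisons that share the WT libraries. The other neuronal H3K4me3 peaks of Cxxc5 were not called. In Ogg1-/- and DKO, its promoter peak was at 0.57 and -0.02 and an intergenic peak at 0.31 and 0.14. A further intronic peak was at -1.14 and -0.07. Ahcy, which clears the S-adenosylhomocysteine left by methyltransferases, had 23.4 ± 10.9 in WT and 7.09 ± 3.77 in Mutyh-/- neurons at its promoter, which is -1.59 ± 0.54 on the log2 scale (SE, limma adjusted p = 1.00). For H3K27me3 an intergenic peak assigned to Gadd45g, a gene linked to active demethylation, was at 0.574 ± 0.995 in WT and 5.15 ± 1.81 in DKO neurons, which is 2.09 ± 1.03 on the log2 scale (SE, limma adjusted p = 0.998). This WT mean lay below the limit of 3 reads, which is 2.59 to 3.32 normalised reads in these WT libraries. The size of the fold change thus depends on the pseudocount. Peaks were kept where found in several replicates, so a peak with few WT reads can have entered through the libraries in which it was high. For the Gadd45g peak and the called intronic Cxxc5 peak, the part of this selection in the difference was not tested. Under most scaling alternatives more peaks of this list were called, as given in the closing section.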

How the data were processed

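ChIP-seq for H3K4me3, H3K27me3 and Suz12 was analysed in 72 libraries. The 24 input libraries are in none of these tables and were left out. According to the submitters' processing notes and the methods, reads were checked with FastQC 0.11.9 and aligned with Bowtie2 2.3.5.1 to GRCm38/mm10. Broad regions were called for each replicate and kept where found in several of them, and DiffBind 3.10.1, edgeR 3.42.4 and ChIPseeker 1.36 gave consensus peaks, values and gene symbols. The values deposited by the authors are normalised signal per peak and not raw counts: in every column they are whole multiples of 1 step to within 0.001, so reads were recovered by division. The tables were normalised separately.

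Each table was fitted with limma 3.58.1 (R 4.3.3, trend) on log2(value + 1) over its 12 libraries with genotype as the only term, and the 95% intervals come from that fit. P-values were adjusted by Benjamini-Hochberg over all peaks of a table, and a DER was defined as in the text. This pseudocount understates changes at low peaks. Library pools are the replicates, and whether they also differ in day or batch is not given in the sources used here, so p-values measure the spread between these libraries. No pair of libraries held the same values. Alternatives used edgeR 4.0.16 quasi-likelihood tests and DESeq2 1.42.0 on recovered reads, other scalings, pseudocounts of 0.5 and 5, a filter on the lowest 25%, robust variance, 6 libraries at a time, a replicate block and libraries left out. The scripts were tested on simulated data. Limits for 0 reads use 3 reads, and these and the intervals at single peaks cover counting error or library spread only.

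Sequences are from RefSeq (GRCm38.p6, samtools 1.23.1) and exons from GENCODE M21, where 99.6% of the deposited transcripts were found, 99.8% of them at the same coordinates. No sequence is given for genes on chromosome 18. Every member peak is described. Values in every library are given for each gene's highest peak in each table and for called peaks, and other pathway genes are named where a DER had no overlap. The members and lists were chosen with earlier results of these data known.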

Additional observations from a re-analysis of the deposited data

Results flagged for a closer look

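At 2 of 16 member peaks all 3 libraries that lacked a glycosylase lay on one side of the mean of the WT group and, on the background of the other knockout, all 3 lay on the opposite side of that group's mean. The same held at 5.50% of all NeuN+ H3K4me3 and 9.32% of all NeuN+ H3K27me3 peaks. By the fold changes alone, 9 of the 16 member peaks had opposite signs on both backgrounds for at least 1 glycosylase. This count was not made over all peaks, so it does not set the members apart. At Mbd3 H3K4me3 in neurons, all 3 Ogg1-/- libraries were below the WT mean and all 3 DKO libraries above the Mutyh-/- mean. The difference between these effects was 1.09 on the log2 scale (limma adjusted p = 1.00). At Uhrf1 H3K27me3 in neurons, all 3 Mutyh-/- libraries were below the WT mean and all 3 DKO libraries above the Ogg1-/- mean, with a difference of 1.98 (limma adjusted p = 0.989). Neither difference passed the test. Groups of 3 libraries were too small for a search for outlying libraries.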

How the results depend on the processing

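No member peak was called for H3K4me3, and no member passed the adjusted threshold, under any alternative run. The replicate block gave 1 H3K27me3 call and 0 for the other member counts, and 6 calls among the other pathway genes. Over all peaks it moved the calls from 422 to 545 in the NeuN+ H3K4me3, from 281 to 513 in the NeuN- H3K4me3 and from 453 to 656 in the NeuN+ H3K27me3 table. Replicate numbers were not treated as pairs in the tables with members, since not every correlation of same-numbered deviations was over 0.1. That rule cannot show that no replicate effect is shared, and this was not tested further. In the same order of tables, 3 of 9, 8 of 9 and 6 of 9 knockout libraries correlated best with the WT library of their own number. The H3K27me3 count of 1 became 0 with edgeR under both scalings and with only the 6 libraries of the contrast, and lay between 0 and 1 when a library was left out. Over 24 alternatives the log2 fold change of Uhrf1 in Ogg1-/- stayed negative, -3.12 to -1.05, with adjusted limma, edgeR or DESeq2 p from 0.774 to 1, and was called in 17. The F test count was 0 to 1 with a library left out, 1 only without Ogg1-/- replicate 2 (Uhrf1 H3K27me3). The non-additive count was 1 in place of 0 with edgeR under both scalings, DESeq2, limma on log2 CPM and cyclic loess, and 0 to 1 with a library left out, each time Mbd3 H3K4me3. The share of all peaks with a non-additive call was not computed for the alternatives. Calls among the other pathway genes rose from 5 to 12 and 11 with edgeR (TMM and total reads), 9 with DESeq2, 13 with limma on log2 CPM and 15 after cyclic loess, fell to 1 with the lowest 25% filtered out and to 2 with 6 libraries, and lay between 3 and 9 with a library left out (3 without Mutyh-/- replicate 2, Ogg1-/- replicate 1 or DKO replicate 3, 9 without Ogg1-/- replicate 2). Over all peaks of the NeuN+ H3K4me3 table, the 422 calls became 1497 with edgeR (TMM), 1465 (total reads), 1110 with DESeq2, 1672 with limma on log2 CPM, 1702 after cyclic loess and 270 with the filter, and 340 to 782 with a library left out. The 281 calls of the NeuN- H3K4me3 table became 129 with edgeR (total reads), 512, 525 and 180 under the last 3 of these settings, and 216 to 489 with a library left out. Filtering the lowest 25% leaves out the weak member peaks and so gives them no value. At Tet1 H3K4me3 in NeuN- nuclei the log2 fold changes stayed positive in the 3 contrasts under all 23 alternatives with a value, 0.61 to 1.67, and were never called. The alternatives used the same set of called peaks, so they do not address how that peak was selected. The depth limits the NeuN- and H3K27me3 member peaks, with at most 15 and 19 reads in a library.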
